A study of Mus musculus with 9 samples.

Results

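The imprinted domain between Dlk1 and Dio3 on mouse chromosome 12 was followed in hindlimb muscle of newborn mice. Its members were all genes that start between the start of Dlk1 and the end of Dio3 in the RefSeq table of assembly GRCm38.p6 and that are read by a probe set with a single gene symbol, with the brightest probe set kept for each gene. RefSeq lists 103 genes there. Of these, 55 were measured, among 22180 genes measured in all, 18 were read only by probe sets that carry several symbols, and 30 were not listed in the probe table used here. The 55 comprised 43 microRNA genes, 6 small nucleolar RNA (snoRNA) genes, Dlk1, Meg3, Rian, 3110009F21Rik, Dio3os and Dio3. A mean above a background level of 3.23 log2 units in at least 1 age was reached by 52 of the 55, and the probe sets kept for Mir299a, 3110009F21Rik and Dio3 lay below it at every age. That level was the 95th percentile of 1432 smell and taste receptor genes, taken here as a measure of unspecific signal.

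RNA was taken from hindlimb skeletal muscle at postnatal days 2, 7 and 14 (P2, P7 and P14), with 3 arrays per age and 9 in all. All mice were of a strain given only as mixed, with no treatment or engineered allele named, and no label says how many animals went into a replicate. Each value is a log2 intensity of a probe set, so levels are compared between ages for the same gene and not between genes. The tissue is a mixture of cells, and fewer cells of a type cannot be told apart from less RNA per cell.

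In an imprinted domain the maternal and paternal copies of a gene are read unequally. Dlk1, Rtl1 and Dio3 are expressed mainly from the paternal chromosome, whereas Meg3, Rian and Mirg are long noncoding RNAs made from the maternal one and are thought to form a nearly continuous transcript. The maternal RNAs carry microRNAs and, in the introns of Rian, C/D-box snoRNAs, and a methylated control region upstream of Meg3 sets which copy is read. The domain is known in muscle from the callipyge sheep, whose hindquarter muscles enlarge after birth when expression of its genes is disturbed. Probe sets for microRNA genes read the precursor or its host transcript, not the mature microRNA, and members of 1 host RNA are not independent measurements.

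All 43 microRNA members were matched by name to RefSeq sequences of GRCm38.p6, with 81 mature sequences in all and 73 distinct seeds. A seed, bases 2 to 8 from the 5′ end, is the stretch through which a microRNA mainly pairs with its targets. The sequences that follow, written 5′ to 3′ with the seed in capitals, come from the 3 members with the most negative fitted changes from P7 to P14 (Mir495, Mir380 and Mir376b) and from the microRNA member with the smallest fall among those above background (Mir666).
miR-495-3p: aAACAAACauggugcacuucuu
miR-380-3p: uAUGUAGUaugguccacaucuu
miR-376b-3p: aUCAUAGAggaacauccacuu
miR-666-5p: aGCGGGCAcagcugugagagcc

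Of the 73 seeds, 8 were shared by 2 members each, and 12 members took part. No microRNA gene elsewhere in the RefSeq table carried any of these 8 seeds. They are shown because a shared seed groups microRNAs that could pair with the same sites. The seed of miR-370 and miR-1193 crosses transcript units, from Rian to the cluster from Mir379 to Mir410, and the other 7 each lie within a unit. The capitals again mark the seed, and each pair of lines shares its own.
miR-379-5p: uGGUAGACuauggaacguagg
miR-1193-5p: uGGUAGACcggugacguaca
miR-379-3p: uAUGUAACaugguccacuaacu
miR-411-3p: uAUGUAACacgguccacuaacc
miR-370-5p: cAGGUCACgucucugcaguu
miR-1193-3p: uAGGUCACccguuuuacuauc
miR-1197-5p: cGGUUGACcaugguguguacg
miR-758-5p: uGGUUGACcagagagcacacg
miR-453: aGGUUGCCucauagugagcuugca
miR-496a-5p: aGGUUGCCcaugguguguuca
miR-376c-5p: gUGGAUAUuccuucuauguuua
miR-376b-5p: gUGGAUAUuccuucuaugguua

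The other 2 shared seeds belong to the precursors Mir3070a and Mir3070b. Mir3070a and Mir3070b share a run of 43 bases between their hairpins, and Mir376b and Mir376c share one of 31 bases. Both runs exceed 25 bases, so the probe sets of such a pair could read both genes, and the values of these 4 are uncertain as separate measurements.

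Most members are thought to be carried by the RNA that starts at Meg3. Its upstream 250 bases, from RefSeq GRCm38.p6 on the plus strand at chr12:109540746-109540995, are printed for the first listed start site, beside those of Dlk1 at chr12:109452573-109452822. Capitals mark matches to 5 motifs searched on both strands: TATATAA of the TATA type, the CAAT-box motif CCAAT, the cyclic-AMP element TGACGTCA, the E-box CANNTG, and the MEF2 site by its name.
Meg3: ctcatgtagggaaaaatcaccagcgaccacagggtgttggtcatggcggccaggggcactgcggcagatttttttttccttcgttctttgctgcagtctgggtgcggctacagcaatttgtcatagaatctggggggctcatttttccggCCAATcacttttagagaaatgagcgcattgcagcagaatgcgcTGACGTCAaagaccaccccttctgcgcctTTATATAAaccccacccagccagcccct
Dlk1: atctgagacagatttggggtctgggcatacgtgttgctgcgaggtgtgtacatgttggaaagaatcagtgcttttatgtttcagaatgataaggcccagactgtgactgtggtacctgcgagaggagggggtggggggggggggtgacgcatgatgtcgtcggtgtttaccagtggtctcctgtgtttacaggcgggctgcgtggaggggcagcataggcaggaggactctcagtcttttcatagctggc

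The Meg3 window held TATATAA 27 bases before the start, which overlaps its match on the other strand at 28 bases. It also held TGACGTCA, which reads the same on both strands, at 57 bases and CCAAT at 100 bases. The Dlk1 window held none of the 5. Among 32851 windows of this length, 3.04% held TATATAA, 1.55% TGACGTCA, 33.8% CCAAT, 66.2% CANNTG and 2.92% the MEF2 site. A match describes letters only, and the data do not bear on any factor binding there.

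Replicates correlated at 0.953 to 0.984 across genes, which are not independent, and the array medians were 3.29 to 3.36. All 12 skeletal muscle markers, among them Acta1 and Ckm, lay above background, and the median of the list per array was 9.79 to 10.24 in the P2 samples, 10.45 to 10.74 in those of P7 and 11.07 to 11.20 in those of P14. P2 replicate 2 stood apart in lists of other cell types: the median of 15 proliferation genes was 4.58 on it against 5.29 and 5.31 on the other P2 arrays, and that of 8 neutrophil precursor genes was 2.88 against 5.03 and 4.41. All p-values rest on the spread among 3 arrays per age, which can be partly technical, and this small number sets the precision.

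No member passed the test from P2 to P7, and nearly all fell from P7 to P14. At P14 against P7, 50 of the 55 members fell and none rose by limma's test with Benjamini-Hochberg adjustment over all genes, at an adjusted p under 0.05, where 0.703% of all genes were lower and 1.72% higher. The domain thus held 32.1% of the 156 genes that fell. The median log2 change of the 55 was -2.24, against 0.02 for all genes. In 51 members the 3 P14 arrays all lay below the 3 P7 arrays, as did 9.13% of all genes. Without P2 replicate 2, 51 members were called. Of the 50 most negative log2 changes among all genes, 41 belonged to these members.

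**Figure D1:**
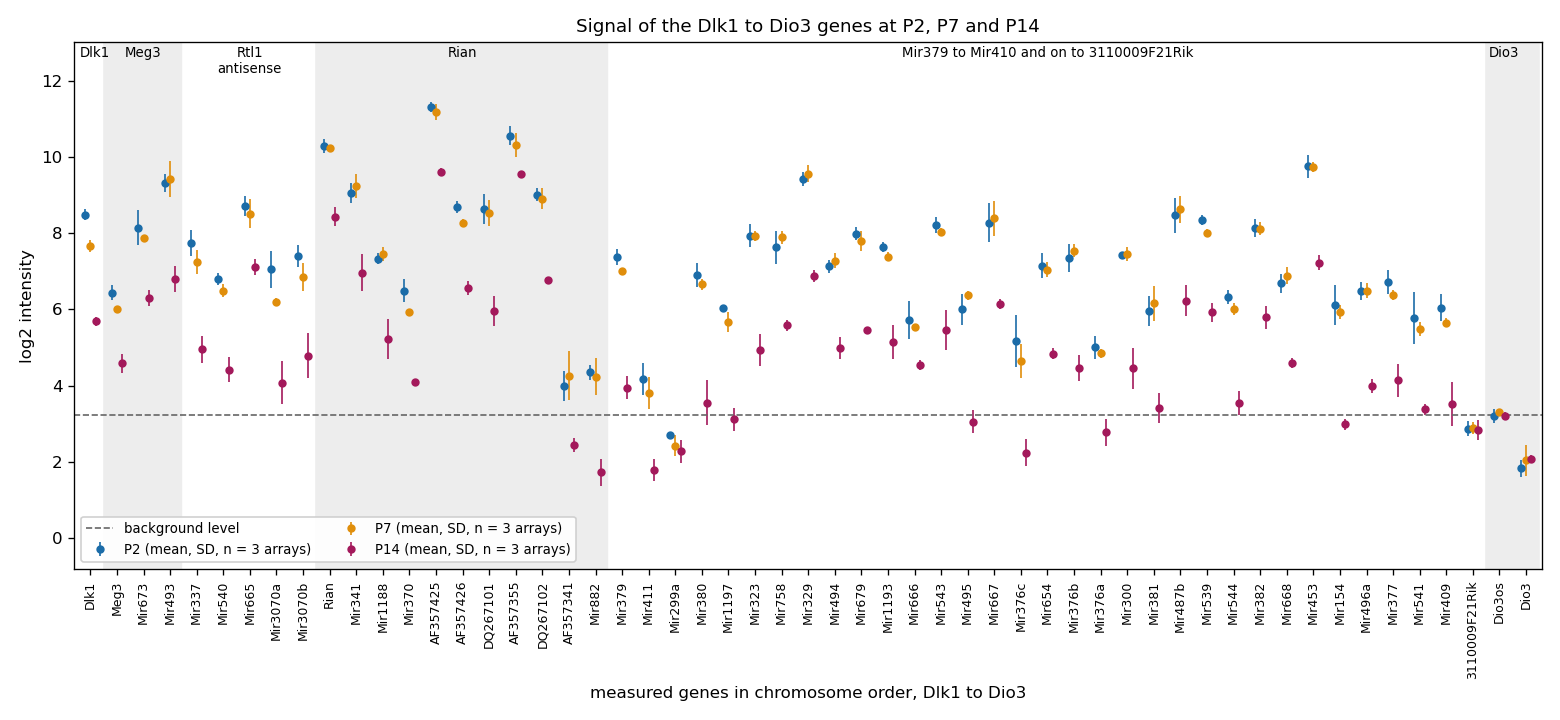
Log2 intensity of each of the 55 measured genes in chromosome order at P2, P7 and P14; points are means of 3 arrays, bars are SD, shading marks transcript units and the dashed line is the background level of 3.23. The P14 points lie below the P2 and P7 points along the domain, apart from Mir299a, 3110009F21Rik, Dio3os and Dio3, which lie at or under the background level and whose P7 and P14 arrays overlap.

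Between P2 and P7 limma with Benjamini-Hochberg adjustment called 0 of the 55, where 0.144% of all genes were lower and 0.185% higher. At an unadjusted p under 0.05 there were 6, beside 12.8% of all genes. The 3 P7 arrays lay below the 3 P2 arrays in 9 members, beside 7.9% of all genes. The median change was -0.16 log2 units over the 55 and -0.01 over all genes. Over the whole span from P2 to P14, 51 of the 55 fell and none rose, where 4.4% of all genes were lower and 6.63% higher, with a median of -2.40. The comparisons share arrays and are not independent of each other.

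Dlk1, a paternal gene at the start of the domain, encodes a transmembrane protein with EGF repeats. It is related to Notch ligands and is held to restrain the differentiation of precursor cells. Dlk1 read 8.47, 8.34 and 8.63 at P2, 7.84, 7.58 and 7.55 at P7, and 5.77, 5.74 and 5.56 at P14. The 3 ages did not overlap, and each was lower than the one before. The P7 change was -0.82 ± 0.17 (SE) log2 units with an adjusted p of 0.0522 (limma), just outside the threshold. Without P2 replicate 2 it was -0.89 with an adjusted p of 0.038, and it was also called when array medians were centred, after cyclic loess, among genes above background alone, and with an intensity trend. From P7 to P14 Dlk1 fell 3.91-fold (-1.97 ± 0.17, limma adjusted p 9.44e-06), and over the whole span 6.92-fold (adjusted p 3.33e-07). The first interval held 29.5% of its whole log2 fall.

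Meg3, the first of the maternal RNAs, read 6.24, 6.63 and 6.46 at P2, 5.93, 6.04 and 6.03 at P7, and 4.87, 4.38 and 4.52 at P14. All P14 arrays were below all P7 arrays, and P7 was below P2 with no overlap but without passing the test (-0.44 ± 0.18, adjusted p 0.324). The fall from P7 to P14 was 2.66-fold (-1.41 ± 0.18, limma adjusted p 0.000432). Both microRNA genes placed in the Meg3 unit fell as well. Mir673 fell 2.99-fold (-1.58 ± 0.21) and Mir493, whose P7 arrays read 9.63, 8.87 and 9.74 and whose P14 arrays read 7.20, 6.61 and 6.61, fell 6.09-fold (-2.61 ± 0.24).

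The next unit holds microRNA genes that lie antisense to Rtl1, a paternal gene derived from a retrotransposon, and some of them are known to cleave its RNA. Mir431, Mir433, Mir127, Mir434 and Mir136 of this unit were read only by probe sets that carry several symbols. Whether the 5 measured members cleave Rtl1 RNA was not examined. These 5 members fell from P7 to P14, with a median of -2.07 log2 units. Their array medians were 7.46, 7.51 and 7.09 at P2, 6.93, 6.46 and 7.17 at P7, and 5.27, 4.45 and 4.45 at P14. Mir337 fell 4.89-fold (-2.29 ± 0.23), Mir540 4.20-fold (-2.07 ± 0.20), Mir3070b 4.19-fold (-2.07 ± 0.27), Mir3070a 4.35-fold (-2.12 ± 0.27) and Mir665 2.62-fold (-1.39 ± 0.21). All 5 had a lower mean at P7 than at P2, with differences of -0.85 to -0.20, and none of these passed the test. Whether a probe set here also picks up Rtl1 RNA cannot be told, since no source used here states how the probes treat strand.

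Rian is the long noncoding RNA that hosts the snoRNAs. It read 10.19, 10.50 and 10.18 at P2, 10.27, 10.25 and 10.19 at P7, and 8.72, 8.26 and 8.30 at P14. P2 and P7 overlapped, at a difference of -0.05 ± 0.18, while every P14 array was lower. The fall from P7 to P14 was 3.50-fold (-1.81 ± 0.18, limma adjusted p 3.47e-05), and 2.91% of the span lay in the first interval.

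C/D-box snoRNAs usually guide methylation of other RNAs, but those of Rian have no established target. Of the 6 measured, 5 fell from P7 to P14 and all 6 fell from P2 to P14. AF357425 read 11.33, 11.41 and 11.15 at P2, 11.01, 11.11 and 11.42 at P7, and 9.71, 9.55 and 9.58 at P14, a fall of 2.97-fold from P7 (-1.57 ± 0.17). DQ267101 fell 5.91-fold (-2.56 ± 0.25), from 8.14, 8.63 and 8.79 at P7 to 6.39, 5.80 and 5.68 at P14. DQ267102 fell 4.42-fold (-2.14 ± 0.18) and AF357426 3.27-fold (-1.71 ± 0.17). AF357341 fell by 1.81 on the log2 scale to a P14 mean of 2.46, under background, so no fold is given.

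The exception was AF357355. It read 10.77, 10.29 and 10.59 at P2, had a mean of 10.31 ± 0.33 (SD, n = 3) at P7, and read 9.53, 9.52 and 9.56 at P14. The P14 arrays were again all lower, yet the difference of -0.77 ± 0.20 had an adjusted p of 0.053 (limma), which ranged from 0.0144 to 0.213 over the 16 alternatives and was under 0.05 in 8 of them. Among these were the fits without P2 replicate 1, without P2 replicate 2 and without P7 replicate 2. Over the whole span AF357355 fell 2.02-fold (adjusted p 0.00388).

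**Figure D2:**
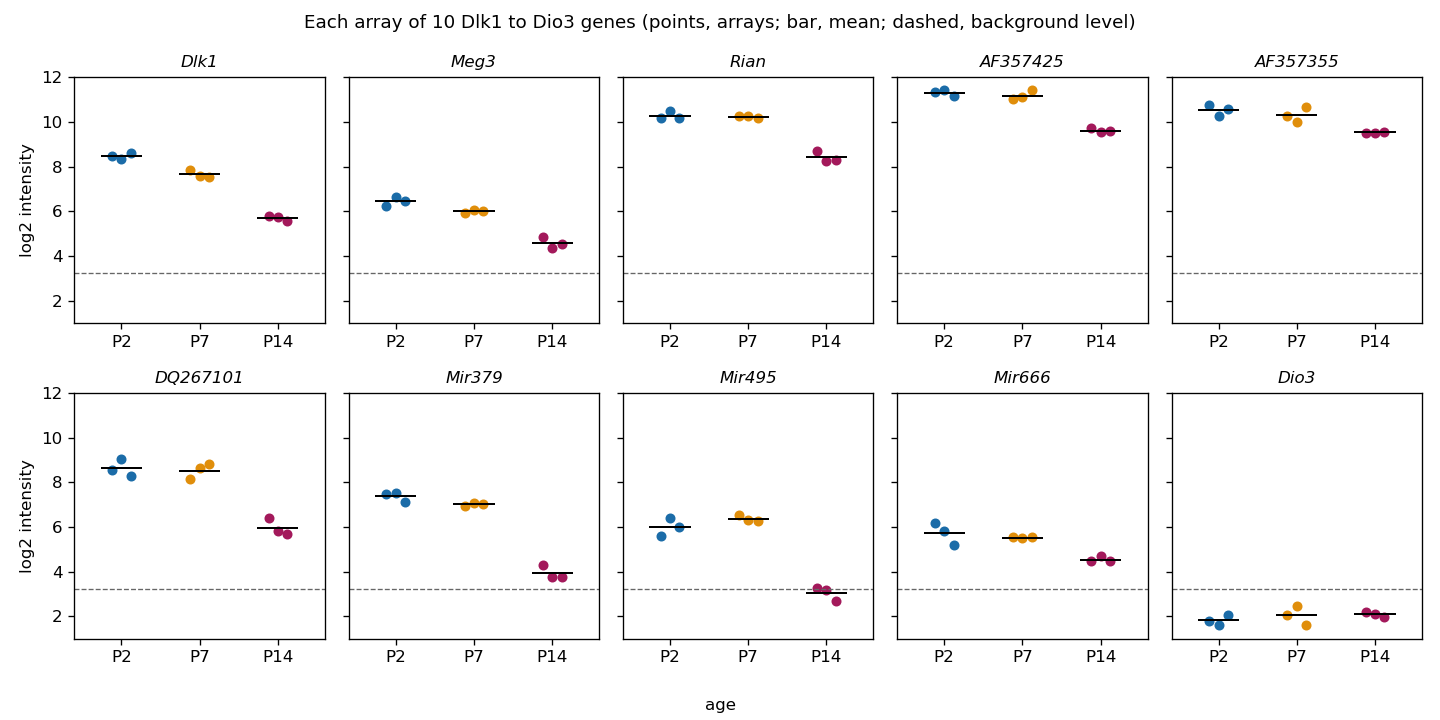
Log2 intensity on every array for 10 members of the domain (Dlk1, Meg3, Rian, 3 snoRNA genes, 3 microRNA genes and Dio3); points are arrays, bars are means of 3 arrays and the dashed line is the background level of 3.23. Rian and AF357425 overlap between P2 and P7 and drop at P14, Dlk1 steps down at both ages, AF357355 and Mir666 show smaller differences at P14, and Dio3 stays under background.

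The 4 microRNA genes measured in the Rian unit, which runs from the start of Rian to that of Mir379, also fell. Whether each lies inside the Rian transcript was not checked. Mir341 fell 4.82-fold (-2.27 ± 0.24), Mir1188 4.69-fold (-2.23 ± 0.23) and Mir370 3.59-fold (-1.84 ± 0.18). Mir882 fell by 2.51 on the log2 scale, from a P7 mean of 4.24 to 1.73, under background.

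The cluster from Mir379 to Mir410, within which the listed start of Mirg lies, held the most negative fitted changes. It had 32 measured microRNA genes, and 3110009F21Rik, which lies beyond Mir410 and before Dio3os, was counted with it. Of these 33, 31 were above background, and those 31, all microRNA genes, were the ones that fell. Mir299a and 3110009F21Rik stayed under background on the probe sets kept. The median change over the 33 was -2.34 log2 units. Mir495 read 5.60, 6.41 and 6.00 at P2, 6.51, 6.32 and 6.28 at P7, and 3.29, 3.16 and 2.71 at P14. Mir495 fell by 3.32 on the log2 scale (SE 0.22, limma adjusted p 2.06e-06) to a mean of 3.05, under background. This was the most negative fitted change of any member, but the 8 members from Dlk1 to Mir410 that fell to a mean under background cannot be ranked by size. Its P2 and P7 arrays overlapped and the P14 arrays were far below both.

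Mir380 read 6.77, 6.49 and 6.70 at P7 and 4.22, 3.09 and 3.36 at P14, a fall of 8.55-fold (-3.10 ± 0.26). A second probe set of Mir380 was under background at every age, with means of 2.49 at P2, 2.35 at P7 and 1.54 at P14. With its probe sets averaged, the change of Mir380 was -1.95 and was still called. Mir376b read 7.41, 7.48 and 7.73 at P7 and 4.82, 4.47 and 4.13 at P14, a fall of 8.39-fold (-3.07 ± 0.22). For Mir379, the first gene of the cluster, the values were 7.48, 7.52 and 7.12 at P2, 6.93, 7.09 and 7.03 at P7, and 4.30, 3.78 and 3.77 at P14. It fell 8.38-fold from P7 (-3.07 ± 0.19, limma adjusted p 1.49e-06) and 10.7-fold from P2. In none of these 3 did a P14 array reach a P7 array.

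Among the 4 with the highest signal in the cluster, which also depends on the probes, Mir453 fell 5.71-fold (-2.51 ± 0.19), Mir329 6.43-fold (-2.69 ± 0.18), Mir487b 5.24-fold (-2.39 ± 0.26) and Mir667 4.77-fold (-2.25 ± 0.26). Mir329 was well above background at all ages, at 9.22, 9.54 and 9.50 at P2, 9.53, 9.36 and 9.79 at P7, and 7.01, 6.92 and 6.69 at P14. Mir666 fell least of the cluster's genes above background. It read 5.54, 5.50 and 5.54 at P7 and 4.46, 4.68 and 4.46 at P14, a fall of 1.99-fold (-0.99 ± 0.22, limma adjusted p 0.0263), and this call was lost when any single P7 or P14 array was left out, with adjusted p up to 0.118. Every other called member of the domain kept its call from P7 to P14 in all 16 alternatives.

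At the Dio3 end no fall was measured. Dio3 encodes the deiodinase that inactivates thyroid hormone, and Dio3os is the noncoding RNA on its other strand. Dio3 read 1.81, 1.62 and 2.06 at P2, 2.06, 2.45 and 1.63 at P7, and 2.19, 2.09 and 1.98 at P14, all under background and overlapping. Its level and any change are therefore not detectable here (0.04 ± 0.21 from P7 to P14, adjusted p 0.966). Dio3os, at 3.22, 3.29 and 3.39 at P7 and 3.33, 3.18 and 3.13 at P14, sat at the background level with overlapping ages (-0.09 ± 0.17, adjusted p 0.881). Mir299a (-0.15 ± 0.20) and 3110009F21Rik (-0.04 ± 0.19) were likewise under background. A second probe set of Mir299a had a P2 mean of 3.58, above background, and means of 2.15 at P7 and 1.55 at P14, and Mir299a was called from P2 to P14 when its probe sets were averaged. These 4 genes and AF357355 are the 5 members not called from P7 to P14.

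**Figure D3:**
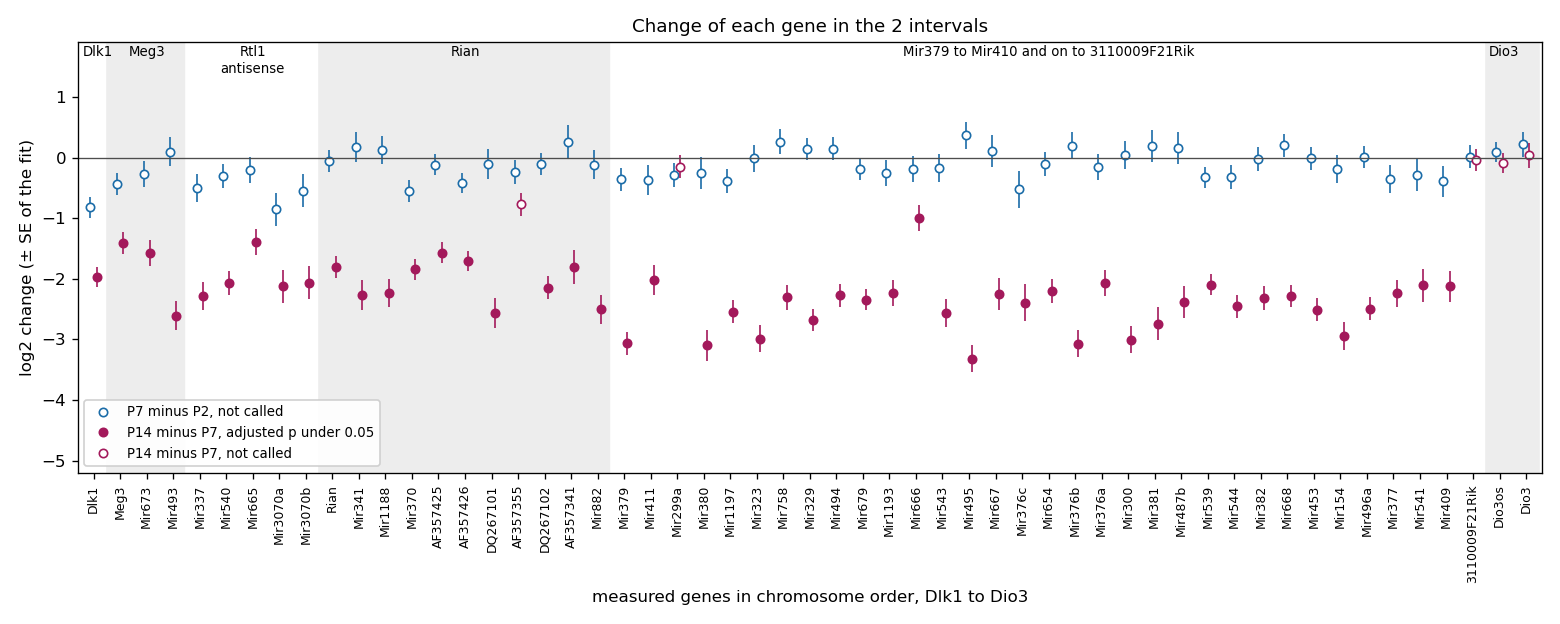
Log2 change of each member in chromosome order, P7 minus P2 (blue) and P14 minus P7 (red), with bars for the SE of the fit; filled points passed an adjusted p under 0.05. The blue points stay between -0.85 and 0.36, while the red points of the 50 called members run from -3.32 to -0.99.

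Whether a member changed differently in the later interval was tested with the contrast of P14 minus P7 less P7 minus P2. The intervals last 7 and 5 days, and the contrast uses the P7 arrays in both terms. It was more negative in the later interval for 30 of the 55 (limma, Benjamini-Hochberg), where 0.158% of all genes were called in that direction, so 85.7% of the 35 genes called lay in the domain. Without P7 replicate 1, 2 or 3 the count was 18, 13 or 14, without P14 replicate 2 it was 17, without P2 replicate 2 it was 31, and 10 members were called in all 15 alternatives.

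The smallest adjusted p were those of Mir495 (-3.68 ± 0.38, adjusted p 0.00116), Mir329 (-2.83 ± 0.31, 0.00178), Mir376b (-3.27 ± 0.38, 0.0028) and Mir379 (-2.71 ± 0.33, 0.00364). Mir323, Mir300, Mir668, Mir453 and Mir496a tied for the next place at 0.00471. Together with Mir494 these 9 were the ones that held in all 15. The cluster from Mir379 to Mir410 gave 23 of the 30 calls, the Rian unit 6 and Mir493 the last. Rian passed with -1.75 ± 0.31 and an adjusted p of 0.0321 (limma). Its call was lost without P2 replicate 1 or 3, without any single P7 array, and without P14 replicate 2 or 3. The same held with the replicate number as a block. Dlk1 (-1.15 ± 0.29, adjusted p 0.203), Meg3 (-0.97 ± 0.31, 0.359) and the 5 genes antisense to Rtl1 did not pass, which does not show that their changes were equal in the intervals.

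**Figure D4:**
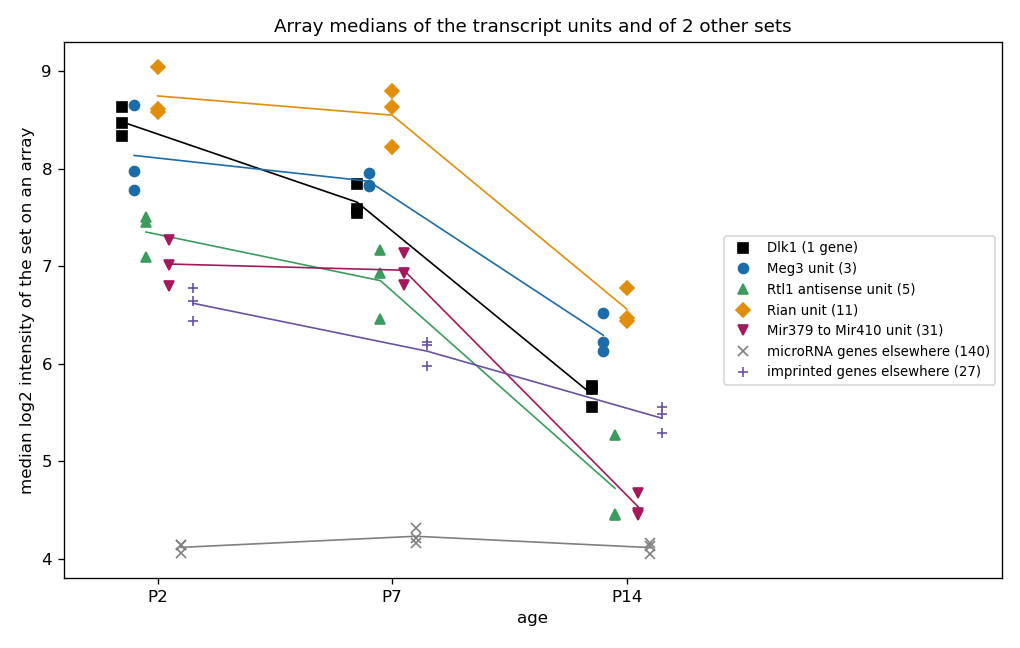
Median log2 intensity on each array of the members above background in each transcript unit, with 140 microRNA genes elsewhere above background and 27 imprinted genes elsewhere for comparison; points are arrays, lines join the means of the 3 ages, and the number of genes is in the legend. The Rian and Mir379 to Mir410 units stay level from P2 to P7 and drop at P14, whereas those microRNA genes elsewhere stay between 4.05 and 4.32.

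By array, the Rian unit had medians of 8.59, 9.05 and 8.61 at P2, 8.23, 8.63 and 8.79 at P7, and 6.78, 6.47 and 6.44 at P14. The members above background in the cluster from Mir379 to Mir410 had medians of 7.01, 7.27 and 6.79 at P2, 6.93, 7.13 and 6.81 at P7, and 4.68, 4.47 and 4.45 at P14. P2 and P7 overlapped in both units and P14 lay below them. From P7 to P14 the unit medians of change were -1.97 for Dlk1 alone, -1.58 for the Meg3 unit, -2.07 for the genes antisense to Rtl1, -1.84 for the Rian unit and -2.34 for the cluster. The differences between units were not tested, since their members share host transcripts.

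Members that share a seed were set side by side. Mir379 fell by 3.07 and its partner in the 5′ seed, Mir1193, fell by 2.23 on the log2 scale, while its partner in the 3′ seed, Mir411, fell by 2.02 from a P7 mean of 3.81 to 1.79, under background. Mir370 of the Rian unit, which shares the 3′ seed of Mir1193, fell by 1.84. Mir1197 fell by 2.54 and Mir758 by 2.31. Mir453 fell by 2.51 and Mir496a by 2.49. Mir376c fell by 2.39, to a P14 mean under background, and Mir376b by 3.07. All 12 members with a shared seed fell from P7 to P14.

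Base composition of the hairpins ran from 29.1% to 62.0% G and C. Across the 40 microRNA members above background with a hairpin, the change from P7 to P14 and the G and C share correlated at r = 0.43 (rho = 0.44), and at r = 0.18 (rho = 0.15) across the 29 in the cluster. The P7 level and the change correlated at r = -0.05 (rho = -0.14). These are descriptions across genes that share arrays and host RNAs. Of the 5 members with a second probe set, DQ267101 had one that was well above background, which went from 7.03 at P2 and 6.57 at P7 to 4.26 at P14. The 12 probe sets that carry several symbols of the domain were all above background, and their P14 arrays all lay below their P7 arrays, with changes of -2.42 to -1.51 and a median of -2.08.

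Genes beside the domain were read in the same fit. The 5 nearest measured genes before Dlk1 (Mir345, Slc25a47, Wars, Wdr25 and Begain) and the 5 after Dio3 (Ppp2r5c, Gm19605, B930059L03Rik, Dync1h1 and 1700001K19Rik) gave 0 calls from P7 to P14 in limma's test, with 0 at an unadjusted p under 0.05. Among all genes 0.703% were lower and 1.72% higher by the adjusted test, so 0 calls among so few genes says little. Their changes ran from -0.38 to 0.40. Begain, next to Dlk1, changed by 0.24 and Ppp2r5c, next to Dio3, by 0.14. At P7 only Ppp2r5c (mean 6.07) and Dync1h1 (6.98) were far above background. Begain (3.12) lay under it, and the rest had P7 means of 3.32 to 4.94, which limits the fall they could show.

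Of 429 microRNA genes measured elsewhere in the genome, 8 fell and 3 rose from P7 to P14, with a median of -0.08 log2 units, beside 42 of 43 in the domain with a median of -2.29. Only 140 of the 429 were above background in at least 1 age, against all but Mir299a of the 43. Genes under background can show little fall, so these counts are not on equal terms. The snoRNA genes elsewhere were likewise not limited to those above background. Of 75 snoRNA genes elsewhere, none fell and 1 rose, with a median of -0.06, beside 5 of 6 in the domain with a median of -1.76. Over the whole span from P2 to P14, 18 of these 75 fell and 1 rose, with a median of -0.45, and their median from P2 to P7 was -0.40. Of the 429 microRNA genes, 24 fell and 9 rose over that span, with a median of -0.15. Of all genes, 0.703% fell and 1.72% rose from P7 to P14, and 4.4% fell and 6.63% rose from P2 to P14. The medians of these sets are descriptions, and no test compared the sets.

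Imprinted genes of other domains served as a comparison. Of 27 measured on a list of 30, 8 fell and none rose from P7 to P14, with a median of -0.52, and 16 fell from P2 to P14. Among all genes, 0.703% fell from P7 to P14 and 4.4% fell from P2 to P14. Gatm, an enzyme of creatine synthesis that is imprinted in placenta, fell 3.30-fold (-1.72 ± 0.16, limma adjusted p 3.01e-05). Plagl1, a zinc finger factor, fell 2.62-fold (-1.39 ± 0.16), and it was the 1 gene of the list called at P7 (-0.88 ± 0.16, adjusted p 0.0308). Peg3 fell 2.17-fold (-1.12 ± 0.16) and Igf2, the fetal growth factor, 1.88-fold (-0.91 ± 0.17, adjusted p 0.00923). Without P14 replicate 2 or 3 the count was 5, and Igf2 was no longer called, and without P2 replicate 2 the count was 10. H19 was not analysed here. None of the 27 was called in the contrast of intervals (limma, 4 at an unadjusted p under 0.05).

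Genes known to act on the domain were looked at next. For 21 measured genes of imprint maintenance, DNA methylation, Polycomb and the MEF2 family, the median change from P7 to P14 was -0.02. None rose and 1 fell, beside 0.703% of all genes. That gene was Tet2, which oxidises methylated cytosine, at 7.08 ± 0.06 (SD, n = 3) at P2, 7.57 ± 0.24 at P7 and 6.44 ± 0.24 at P14 (-1.13 ± 0.18 SE, limma adjusted p 0.00338). Mef2a, a muscle transcription factor known to activate the domain, changed by -0.03 ± 0.16. The 18 measured genes of microRNA processing, such as Drosha and Dicer1, gave 0 calls in limma's test, with 2 at an unadjusted p under 0.05 and a median of 0.01.

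Pathways of the protein-coding members were counted likewise. The Notch pathway, to which Dlk1 is related, gave 0 calls among 18 genes from P7 to P14 in limma's test, with 1 at an unadjusted p under 0.05 and a median of -0.03. In the thyroid hormone axis, in which Dio3 acts, 5 of 13 rose, beside 1.72% of all genes. None fell, and the median was 0.41. Hr, a corepressor of the hormone receptors, rose 2.03-fold (1.02 ± 0.15, limma adjusted p 0.00196). Klf9, a target of the hormone, rose 2.27-fold (1.19 ± 0.24, adjusted p 0.0181) and Thrb, a receptor, 1.88-fold (0.91 ± 0.21, adjusted p 0.0381). Leaving out any single P14 array or P7 replicate 1 left 1 call, that of Hr, and leaving out P7 replicate 2 or 3 left 2. Dio2, which activates the hormone, changed by 0.25 ± 0.23.

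Proliferation genes and markers of cell types were counted in the same way. From P7 to P14, 4 of 15 proliferation genes fell, beside 0.703% of all genes, with a median of -0.58. Among the 4 were Tyms (-0.98 ± 0.16), Mki67 (-1.18 ± 0.21) and Top2a (-1.06 ± 0.20). The count was 2 without P7 replicate 2 or P14 replicate 1 or 3, and 5 without P2 replicate 2. The median of the list per array was 4.58 to 5.31 in the P2 samples, 4.46 to 4.72 in those of P7 and 3.94 to 4.11 in those of P14, and 0 of the 15 were called in the contrast of intervals (limma, 1 at an unadjusted p under 0.05). The 8 neutrophil precursor genes had medians of 2.88 to 5.03, 3.26 to 3.82 and 2.69 to 2.94, and all 8 had a P14 mean under background.

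The 3 erythroid genes had array medians of 3.65 to 5.60, 4.11 to 4.62 and 3.24 to 3.78 at the 3 ages, and the 9 cartilage and bone genes 3.97 to 5.41, 3.48 to 4.24 and 3.24 to 3.49. From P7 to P14, 0 genes were called in the lists of neutrophil precursors, erythroid cells, cartilage and bone, satellite cells, fibro-adipogenic cells, pericytes and smooth muscle, endothelial cells, adipocytes and macrophages by limma, with 5, 3, 2, 0, 1, 5, 0, 3 and 0 at an unadjusted p under 0.05. The share of all genes at that unadjusted level is not given here for this interval. Such counts, in these lists or others, therefore cannot be read as many or few. Without P2 replicate 2, 3 neutrophil precursor genes, 1 erythroid, 1 cartilage and bone and 1 adipocyte gene were called lower, and 1 fibro-adipogenic and 1 pericyte and smooth muscle gene higher. With the P7 and P14 arrays fitted alone, 4 neutrophil precursor, 2 erythroid, 2 cartilage and bone and 1 adipocyte gene were called lower. In that fit 2 pericyte and smooth muscle, 1 fibro-adipogenic and 1 adipocyte gene were called higher. Satellite cell genes had array medians of 4.81 to 5.10, 4.39 to 4.82 and 4.36 to 4.43. In the Schwann cell and nerve list 1 of 5 fell, namely Ncam1. In the skeletal muscle list 1 of 12 rose, namely Mb (2 rose without P2 replicate 2). The calls of Ncam1 and Mb were both lost when any single P7 or P14 array was left out. The part of these cell types in the fall of the domain was not tested.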

How the data were processed

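The 9 samples were hindlimb skeletal muscle at 3 ages with 3 biological replicates each, per the labels. Per the labels' protocols, Trizol was used to extract RNA, and 6 ug of total RNA went into biotinylated cRNA. The authors deposited 1 log2 intensity for each of 41345 probe sets per array. The submitters' processing notes name RMA and Partek, without versions. RMA subtracts background, makes arrays alike by quantiles and combines the probes of a set on a log2 scale, and the base of the deposited values is inferred from this. No source used here gives the platform or build, and raw probe intensities were not used.

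Probe sets were named from the platform annotation: 23521 carry 1 symbol, 1814 several and 16010 are not listed. By Entrez number 23328 matched RefSeq GRCm38.p6 and 149 matched by symbol. That table served for names and order, and its sequences for the motifs and seeds. The brightest probe set by mean over the 9 arrays was kept per gene, with no filter on dim genes. Means and SD are over 3 arrays. limma 3.58.1 in R 4.3.3 was fitted to all 22180 genes with 1 mean per age, empirical Bayes moderation, two-sided tests and Benjamini-Hochberg adjustment over all genes. The fit was tested on simulated data.

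The members and the gene lists were chosen with earlier results of these data known. Text names every member that is not a microRNA gene, the 4 microRNA genes per unit with the highest mean signal, the 3 most and 3 least negative changes among members above background, members sharing a seed, the 5 smallest adjusted p for the difference of intervals with ties, and up to 3 called genes of each other list with Dio2, Mef2a, Igf2 and H19. Mir494 was named after its values were seen, and the genes beside the domain by position. Alternatives were centred array medians, cyclic loess, the mean of a gene's probe sets, genes above background alone, an intensity trend, the 2 ages compared alone, a replicate block, and leaving out each array.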

Additional observations from a re-analysis of the deposited data

Results flagged for a closer look

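The change from P7 to P14 differed from that from P2 to P7 by limma's test of the difference itself in 30 members of the Dlk1 to Dio3 domain, all of them with the more negative change in the later interval. The median of this difference over the 55 members was -2.07 log2 units, against 0.04 over all genes.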

How the results depend on the processing

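The count of members that fell from P7 to P14 was 50 and ran from 49 to 51 over the 16 alternatives, and that from P2 to P14 was 51 and ran from 51 to 52. No called result changed direction, whereas some differences that were not called did, such as those of Rian and Mir493 from P2 to P7 and of Dio3 from P7 to P14. Between P2 and P7 the count of 0 became 1, Dlk1, with centred array medians, cyclic loess, genes above background alone, the intensity trend, and without P2 replicate 2, so leaving out single arrays gave 0 to 1. The count for the difference of intervals was 30 and ran from 13 to 33 when single arrays were left out, namely 18, 13 and 14 on leaving out P7 array 1, 2 or 3 and 17 without P14 replicate 2. Each such fit has fewer arrays. It was 34 among genes above background alone and 35 with the intensity trend. Over the 52 members above background, the median change from P2 to P7 was -0.17 and ran from -0.29 without P2 replicate 3 to -0.04 without P2 replicate 2, and that from P7 to P14 was -2.26. Whether replicate numbers pair samples across ages is not stated, and with 3 arrays per age the values cannot exclude it. Same-numbered arrays correlated at -0.03 to 0.06 in their deviations from the age means, and differently numbered ones at -0.08 to 0.11. With the replicate number as a block the counts were 0, 50 and 51 for the 3 comparisons of ages and 25 for the difference of intervals, where Rian was no longer called. Averaging probe sets added Mir299a to the genes called from P2 to P14. The medians of all genes moved by less than 0.1 log2 units under every scaling. Signal over background limits the values of the members with a P14 mean under it, for which no fold is given.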
